A study of Mus musculus with 11 samples.

Results

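The neurexophilins, neurexins and neuroligins are gene families whose proteins meet in the synaptic cleft. Here 8 of these genes were examined in mouse hippocampus: the neurexophilins Nxph1, Nxph3 and Nxph4, the neurexins Nrxn2 and Nrxn3, and the neuroligins Nlgn1, Nlgn2 and Nlgn3. They were found by matching the Ensembl identifiers of the count tables to gene symbols of GENCODE on the mouse genome GRCm38, and they are 8 of 38293 genes in the tables. All 8 were among the 20589 genes with a total of at least 10 reads over all mice, which were the genes tested. The set was put together around Nxph3 with its difference between the diet groups in view, so differences between those groups are given below for the 8 genes as a description, without a test. Nxph2, the remaining neurexophilin, is shown beside them.

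Whole hippocampi came from 11 wildtype F1 mice of 129S6/SvEv dams and C57BL/6J sires, each 14 weeks old. The CD group had 6 mice, 3 of each sex, whose dams ate a diet with 2.3 mg folic acid per kg. The FD group had 5 mice, 2 males and 3 females, whose dams had eaten 40 mg folic acid per kg of diet before mating. All dams received the control diet from mating on. The labels do not say which mice were littermates, and p-values therefore measure the spread between mice without regard to litter.

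Neurexins sit in the presynaptic membrane and bind across the cleft to postsynaptic neuroligins. Neurexophilins are small secreted glycoproteins that bind tightly to the extracellular part of alpha-neurexins. Nxph1 is known from inhibitory interneurons, and Nxph3 from restricted groups of neurons, among them those of the deepest cortical layer. Nlgn1 is mainly a protein of excitatory synapses, Nlgn2 of inhibitory synapses, and Nlgn3 occurs at both.

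Total reads on genes ranged from 11737554 to 44447006 per mouse, and values are given as CPM, the standard per-library scaling of read counts, after TMM adjustment of library sizes. The main axis of variation among the libraries, with 37.3% of the variance, followed sex rather than diet, and so did the share of reads outside genes, which was 8.34% to 12.2% in females and 10.4% to 12.9% in males. Of the 9 marker genes of hippocampal principal neurons, all were detected in all mice, from Spink8 with a mean of 14.8 CPM to Camk2a with 5023 CPM. Markers of neighbouring tissue were also present. The summed CPM of 8 choroid plexus markers was 35.9 to 90.1 in CD and 31.2 to 44.3 in FD mice, with Kcnj13 the lowest at a mean of 0.275 CPM and at 0 in at least 1 mouse. The summed CPM of 12 genes of glia and vessels was 4647 to 6562 in CD and 4834 to 5785 in FD mice.

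Because the genes of each family resemble each other and the reads were 50 bases long, the coding sequences of the members were compared first. The closest 50-base stretches of the family members that matter most to the values below are shown 5′ to 3′ on the coding strand of the GRCm38 transcripts, with the bases that differ within a pair in capitals.
Nxph1: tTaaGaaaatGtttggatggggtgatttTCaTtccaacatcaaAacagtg
Nxph3: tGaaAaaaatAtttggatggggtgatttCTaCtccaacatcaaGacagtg
Nxph3: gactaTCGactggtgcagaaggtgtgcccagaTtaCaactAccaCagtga
Nxph4: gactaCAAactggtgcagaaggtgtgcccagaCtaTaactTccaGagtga
Nrxn2: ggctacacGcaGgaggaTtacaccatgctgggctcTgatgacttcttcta
Nrxn3: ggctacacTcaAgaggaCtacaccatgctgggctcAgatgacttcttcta
Nlgn2: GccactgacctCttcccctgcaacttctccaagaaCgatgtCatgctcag
Nlgn3: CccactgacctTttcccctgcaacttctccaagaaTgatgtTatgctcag
Each of these stretches lies within 1 coding exon. The first pair is at chr6:9247374-9247423 on the plus strand and chr11:95511251-95511300 on the minus strand, and the second at chr11:95510853-95510902 and chr10:127526125-127526174, both on the minus strand. The neurexin pair is at chr19:6472294-6472343 and chr12:89193082-89193131, both on the plus strand, and the neuroligin pair at chr11:69826786-69826835 on the minus strand and chrX:101318627-101318676 on the plus strand. Even at its closest, Nxph3 differed from Nxph1 at 7 of 50 bases and from Nxph4 at 7 of 50. The neurexin and neuroligin pairs differed at 4 of 50. Accordingly, of the 2050 windows of 50 bases in the Nxph3 transcript, 0 occurred in the transcripts of another annotated gene, and the same held for the 4703 windows of Nxph1, the 1626 of Nxph4 and the 5778 of Nlgn2.

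For the other members, windows were shared mostly with genes annotated on top of them rather than with relatives. In Nlgn3 this was 40.9% of 9361 windows, nearly all of them (3777) with the overlapping gene Gm21986, which is also in the tables. In Nlgn1 it was 8.77%, in Nrxn2 5.29% and in Nrxn3 3.04%. Whether the counting used the strand of the reads is not stated, and a read that fits overlapping genes may be left out of both, so the level of Nlgn3 in particular is uncertain.

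Per kilobase of exon, the members spanned a wide range of levels. Nlgn2 was highest with 46.5 ± 3.28 CPM per kb (SD, n = 11), followed by Nrxn3 with 22.9 ± 0.87 and Nrxn2 with 14.8 ± 1.69, and the ranges of these neighbours did not overlap. Nxph1 came next with 9.09 ± 0.817, then Nlgn1 with 7.26 ± 0.435, Nxph3 with 6.35 ± 1.59 and Nlgn3 with 5.88 ± 0.769 CPM per kb. The ranges of these 4 overlapped from each gene to the next, so by this length the ranges do not separate their order. Ranges leave aside that the levels of 2 genes come from the same libraries, and the order within each mouse was not compared. Nxph2 with 0.845 ± 0.228 and Nxph4 with 0.383 ± 0.139 CPM per kb were the lowest, and the gap between Nlgn3 and Nxph2 was 6.96-fold. When only exon bases free of other genes of the tables were used, a choice made after seeing the data, 5448 of 9271 bases were left for Nlgn3, and its mean then took rank 4 of the 9 genes in place of rank 7. The separations also depend on the length used. Per kilobase of the longest transcript, Nrxn3 (33.3 to 38.3 CPM per kb) and Nrxn2 (24.8 to 35.3) overlapped. By that length Nxph1 (12.3 to 17.3) lay above the range of Nlgn1 (7.69 to 9.17).

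**Figure D1:**
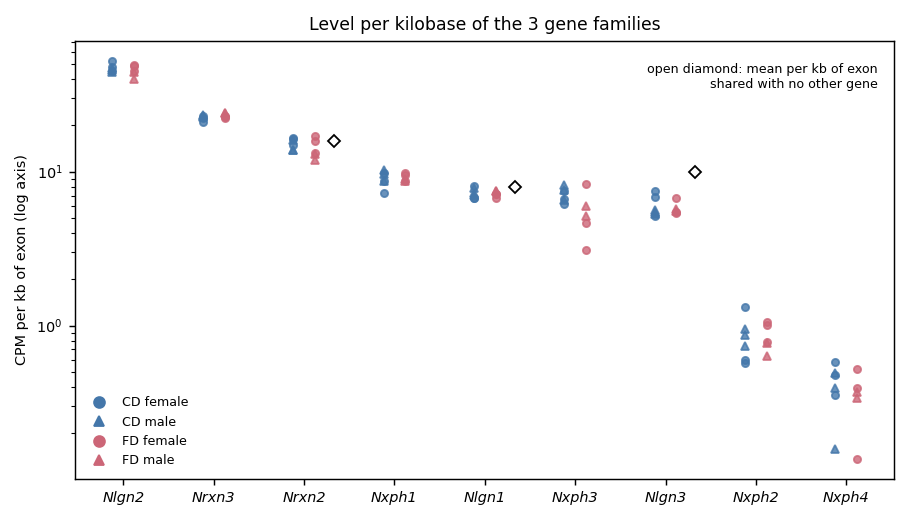
CPM per kilobase of exon, on a log axis, of the 8 members with Nxph2 in each of 6 CD and 5 FD mice. Points are mice, open diamonds are means per kilobase of exon shared with no other gene of the tables; Nlgn2 stood at the top with 46.5 and Nxph4 at the bottom with 0.383, and FD points of Nxph3 spread further than CD points.

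Nxph1 and Nxph3 made up most neurexophilin transcripts. Per kilobase of exon, Nxph1 made up 51.9% ± 2.34 (SD, n = 6) of the neurexophilin transcripts in CD mice and Nxph3 41.0% ± 2.24, with 4.77% ± 1.31 for Nxph2 and 2.34% ± 0.803 for Nxph4. These shares depend on the length used, since Nxph1 has 4753 exon bases but a longest transcript of 2815 bases. Per kilobase of the longest transcript, its CD mean was 15.3 CPM per kb in place of 9.04, while Nxph3 was at 7.13 by either length. By that length the share of Nxph1 would be larger and that of Nxph3 smaller. Nlgn2 held 78.0% ± 0.716 of the summed level of the 3 neuroligins, with the limit on Nlgn3 given above. In FD mice its share was 77.8% ± 1.67 (n = 5).

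The first question was how these genes compare between CD and FD mice. Nxph3 (ENSMUSG00000046719, chr11:95509845-95514570, minus strand) had the largest difference of the 8 genes, with lower values in FD mice. Its level in CD mice was 16.0, 13.8 and 17.3 CPM in males 1 to 3 and 15.7, 13.0 and 14.0 CPM in females 1 to 3. In FD mice it was 10.8 and 12.5 CPM in males 1 and 2 and 17.4, 9.67 and 6.54 CPM in females 1 to 3. Thus 4 of 5 FD mice lay below all CD mice, while FD female 1 had the highest value of the 11 and FD female 3 the lowest. These values rest on 127 to 765 reads per mouse.

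The mean of Nxph3 was 15.0 ± 1.61 CPM in CD (SD, n = 6) and 11.4 ± 3.99 CPM in FD (n = 5), so that the spread among FD mice exceeded that among CD mice. The fitted FD minus CD difference was -0.39 on the log2 scale (SE 0.172), or 23.9% lower. It was -0.62 without FD female 1 and -0.24 without FD female 3, so these individual mice move its size by more than 1.5 times, while its sign was the same in all 11 fits that left out a mouse. Fitted within sexes, the difference was -0.43 (SE 0.122) in 3 CD and 2 FD males and -0.32 (SE 0.267) in 3 CD and 3 FD females. These are parts of the same comparison, and with 2 FD males the smaller SE does not make the male value firmer. In bulk tissue, fewer cells with Nxph3 and less Nxph3 RNA per cell cannot be told apart.

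A comparison within the family needs no library scaling. The ratio of Nxph3 to Nxph1 reads in each mouse was 0.315 to 0.405 in CD, with a mean of 0.35 ± 0.0338 (SD, n = 6). In FD it was 0.37 in female 1, 0.292 in male 2, 0.262 in male 1, 0.234 in female 2 and 0.145 in female 3, with a mean of 0.261 ± 0.082 (n = 5). The same 4 of 5 FD mice lay below the CD range. The ratio rests on the Nxph3 reads given above, so it is no separate evidence of a difference. The Nxph3 share of neurexophilin transcripts per kilobase was 33.7% ± 7.53 in FD against 41.0% in CD, and the Nxph1 share was 58.6% ± 6.05 against 51.9%.

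Nxph1 itself (chr6:8948431-9249032) differed little, at 43.0 ± 5.02 CPM in CD and 43.4 ± 2.47 CPM in FD mice. Its log2 difference was 0.01 (SE 0.0757), and the ranges of 34.7 to 48.6 and 41.1 to 46.9 CPM overlapped throughout. Nxph4 (chr10:127525473-127534559) was near the limit of detection with 3 to 31 reads per mouse, 0.686 ± 0.245 CPM in CD and 0.589 ± 0.233 CPM in FD, and Nxph2 had 2.17 ± 0.724 and 2.20 ± 0.456 CPM. The log2 difference was -0.15 (SE 0.296) for Nxph4 and -0.03 (SE 0.203) for Nxph2, so a small difference of either could not be resolved.

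**Figure D2:**
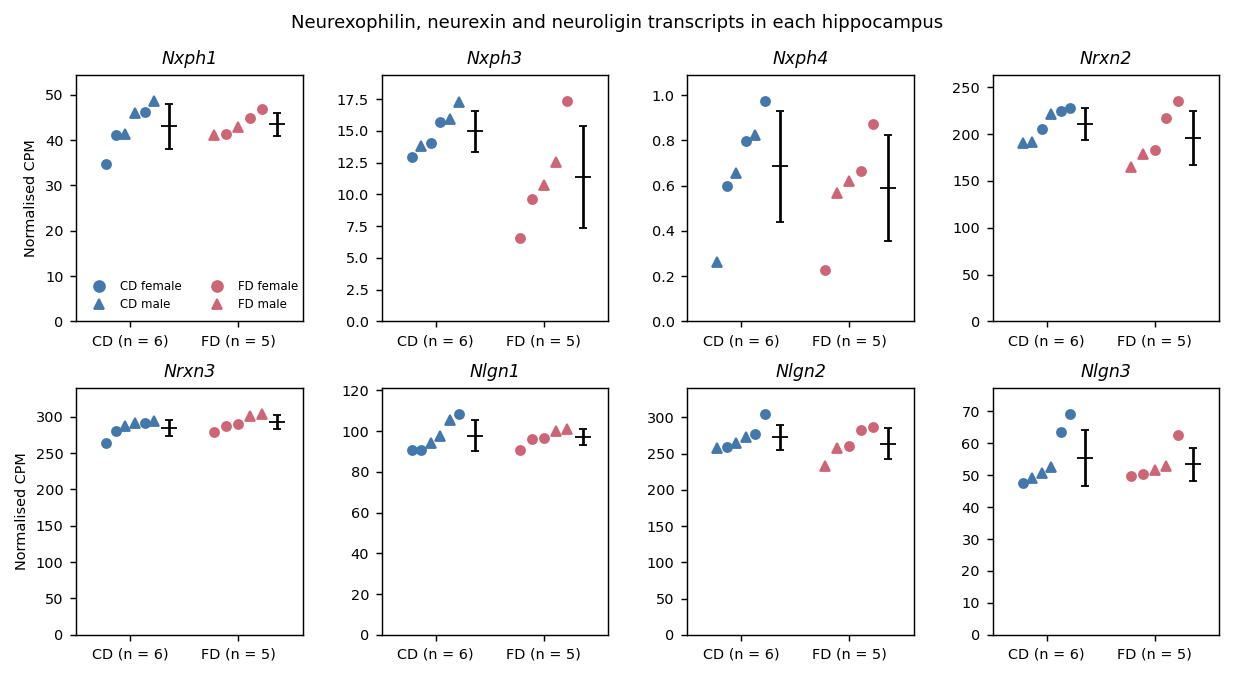
Normalised CPM of each of the 8 members in 6 CD and 5 FD mice, each axis starting at 0. Points are mice (circles females, triangles males, ordered by value) and black bars are mean ± SD; Nxph3 shows 4 FD mice below the CD mice and FD female 1 above them, and the groups overlap in the other 7 panels.

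Of the 2 neurexins, the receptors of the neurexophilins, Nrxn3 was close in both groups and Nrxn2 less so. Counts per gene do not single out the alpha-neurexins. Nrxn3 (chr12:88722876-90334935) had 285 ± 11.3 CPM in CD (SD, n = 6) and 292 ± 9.95 CPM in FD (n = 5), a log2 difference of 0.04 (SE 0.0456). Nrxn2 (chr19:6418731-6544169) was at 191, 191 and 222 CPM in CD males 1 to 3 and 228, 206 and 225 CPM in CD females 1 to 3. In FD mice it was at 179 and 165 CPM in males 1 and 2 and at 235, 183 and 217 CPM in females 1 to 3. FD female 1 was again the highest of all mice, and 3 of the 5 FD mice, both males among them, were below all CD mice. The log2 difference of Nrxn2 was -0.10 (SE 0.0836), between means of 210 ± 17.0 and 196 ± 29.2 CPM. With sex as covariate it was -0.13 (SE 0.0668). Fitted within sexes, it was -0.21 (SE 0.0765) in males, of which 2 were FD mice, and -0.05 (SE 0.0928) in females.

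The neuroligins were close in both groups. Nlgn1 (chr3:25426215-26332460) had 97.9 ± 7.44 CPM in CD and 97.0 ± 3.91 CPM in FD, with a log2 difference of -0.01 (SE 0.0555). Nlgn2 (chr11:69823122-69837784) had 273 ± 17.2 and 264 ± 21.9 CPM, with a difference of -0.05 (SE 0.0604). Nlgn3 (chrX:101299168-101325963) had 55.4 ± 8.82 and 53.4 ± 5.22 CPM, with a difference of -0.05 (SE 0.0941). Apart from Nxph3 and the scarce Nxph4, every member thus had a log2 difference between -0.10 and 0.04 in the fit by diet alone.

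Across all genes, edgeR's quasi-likelihood test called 14 of 20589 genes (0.068%) between FD and CD mice at an adjusted p below 0.1, and all of them were higher in FD. With the 5 pairs of equal sex and number as a replicate block, which leaves out CD male 3, 23 genes were called, 19 higher and 4 lower in FD. In the fit without the block, none of the 8 members was called, 1 of the 8 had an unadjusted p below 0.05, against 534 genes (2.59%) in all, and DESeq2, which called 18 genes (0.0875%), called 0 of the 8. Nothing is read from these counts, since the set was chosen on this comparison. The median log2 difference was -0.05 over the 8 members and -0.00405 over all genes tested.

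**Figure D3:**
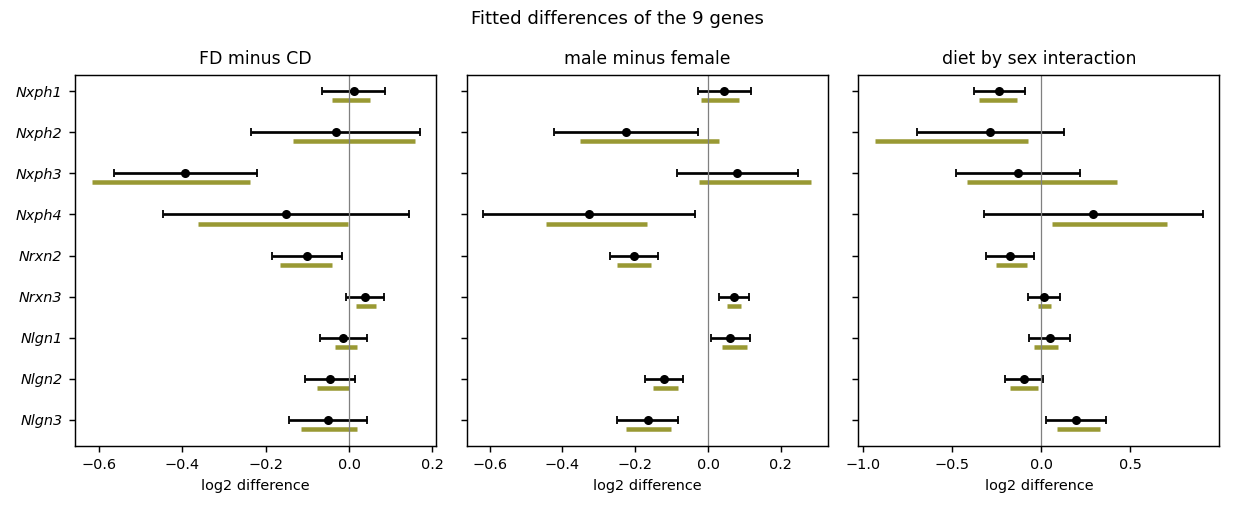
Fitted log2 differences of the 8 members with Nxph2 between FD and CD mice, between males and females, and for the diet by sex interaction. Black points and bars are estimates ± SE and the olive bars span the 11 fits that left out 1 mouse; for FD minus CD the olive bar of Nxph3 runs from -0.62 to -0.24.

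Genes of the same synaptic system were then compared between FD and CD mice. Their values did not choose the members, but these lists too were drawn up with earlier results of these data known. The 19 extracellular partners hold other ligands of neurexins and proteins that bind neuroligins, such as cerebellins, LRRTMs and MDGAs. The 18 intracellular scaffolds hold proteins that anchor neurexins and neuroligins inside the synapse, and the last 6 genes act in neurexin splicing or shedding. With edgeR, 0 of these 43 genes passed the threshold, 1 had an unadjusted p below 0.05, and DESeq2 called 0. Over all genes these shares were 0.068%, 2.59% and 0.0875%. Of the 9973 genes averaging 10 CPM or higher, edgeR called 0, and 68 had an unadjusted p below 0.05. With calls this rare in any set, 0 of 43 does not set the partner genes apart from other genes. The medians were -0.03 for the extracellular partners, 0.00386 for the scaffolds and -0.02 for splicing and shedding. In most of these genes the difference was small: among the scaffolds it lay between -0.08 and 0.06.

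The 3 genes with the smallest p were the cerebellins Cbln4 and Cbln2, secreted ligands of neurexins, and Apba2, a scaffold that binds neurexin tails. Cbln4 had 10.5 ± 1.34 CPM in CD and 12.9 ± 3.06 CPM in FD (log2 difference 0.30, SE 0.129, edgeR adjusted p = 1.0). Without FD female 1 this was 0.14. Cbln2 had 10.5 ± 0.838 CPM in CD and 9.02 ± 1.94 CPM in FD (-0.24, SE 0.118, edgeR adjusted p = 1.0), and Apba2 differed by -0.08 (SE 0.0578, edgeR adjusted p = 1.0). Cbln2 was at -0.14 without FD female 3 and Apba2 at -0.038 without FD male 2, so single mice moved all 3 by more than 1.5 times.

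Since sex was the main axis of the libraries and was not used to choose the genes, males and females were compared with diet as covariate. Relative to its error, Nrxn2 had the largest difference of the 8 members. It had 216 ± 19.1 CPM in the 6 females and 190 ± 20.9 CPM in the 5 males. With the values given above, 4 of 5 males lay below the female median, and CD male 3, at 222 CPM, did not. The log2 difference, male minus female, was -0.20 (SE 0.0668), just outside the threshold with edgeR (adjusted p = 0.106). With DESeq2 it was -0.20 and inside it (adjusted p = 0.0576).

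No member passed the threshold between the sexes with edgeR, where 6.11% of all genes did, and 2 of the 8, Nrxn2 and Nlgn2, had an unadjusted p below 0.05, against 20.3% of all genes. DESeq2 called 1 of the 8, Nrxn2, against 9.93% of all genes tested. It gave an adjusted p to only 12604 genes, of which it called 2043. Both shares of the members are near the background. Nlgn2 had 278 ± 17.1 CPM in females and 257 ± 15.2 CPM in males (-0.12, SE 0.0519, edgeR adjusted p = 0.197), and all 5 males were below the female median. Nlgn3, which lies on the X chromosome, had 57.1 ± 9.04 CPM in females and 51.3 ± 1.48 CPM in males (-0.17, SE 0.0833, edgeR adjusted p = 0.276). Here the females spread from 47.4 to 69.1 CPM and the males from 49.2 to 52.8 CPM, so the ranges overlapped. Nrxn3 and Nlgn1 had values of 0.07 (SE 0.0414) and 0.06 (SE 0.0538). For Nxph3 it was 0.08 (SE 0.167, edgeR adjusted p = 0.834), which was -0.02 without FD female 3.

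The sex comparison as a whole was unstable. The number of genes called fell from 1257 to 37 without diet as covariate, and to 5 within CD mice and 5 within FD mice. Without single mice it ranged from 18 (without CD male 1) to 3244 (without CD female 2). With the share of reads outside genes as covariate, a choice made after seeing the data, it was 9, and Nrxn2 was at -0.11 (SE 0.0762, edgeR adjusted p = 0.721). This share differed between the sexes (11.8% ± 0.934 in males, 10.3% ± 1.33 in females), and its part in the result was not tested beyond that fit.

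Among the 43 partner genes, 2 passed the threshold between the sexes with edgeR, 1 in each direction, where 3.07% of all genes were called higher and 3.03% lower in males. At an unadjusted p below 0.05 there were 10 of the 43, against 20.3% of all genes. DESeq2 called 6, against 9.93% of all genes tested, or 2043 of the 12604 genes to which it gave an adjusted p. Between the sexes the background of expressed genes was higher. Of the 9973 genes averaging 10 CPM or higher, edgeR called 515 higher and 508 lower in males. An unadjusted p below 0.05 was found for 3042 of them. The counts of the partner genes are thus not above the background. Mdga2, which encodes a membrane protein that binds neuroligins and keeps them from neurexins, was higher in males, with 36.3 ± 2.21 CPM against 27.8 ± 4.22 CPM (0.41, SE 0.0792, edgeR adjusted p = 0.0494). Lrrtm1, which encodes a postsynaptic ligand of neurexins, was lower in males, with 105 ± 10.9 CPM against 120 ± 7.88 CPM (-0.20, SE 0.0619, edgeR adjusted p = 0.0951). Dlg2, a scaffold of the postsynaptic density, came next with 0.22 (SE 0.0732, edgeR adjusted p = 0.107). Of the 11 fits that left out a mouse, the call of Mdga2 was lost in 5 (without CD male 1, CD females 1 and 3, FD male 2 or FD female 3, with edgeR adjusted p of 0.157, 0.113, 0.156, 0.141 and 0.107), and that of Lrrtm1 held in only 2 (without CD female 2 or FD female 2). With reads outside genes as covariate Mdga2 was at 0.38 (edgeR adjusted p = 0.505) and Lrrtm1 at -0.13 (edgeR adjusted p = 0.66).

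**Figure D4:**
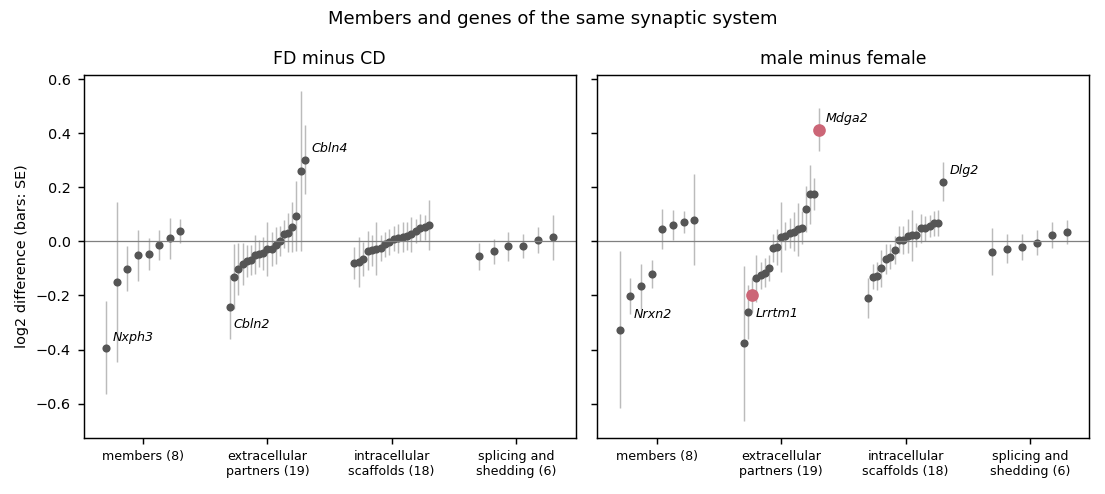
Log2 differences between FD and CD mice (left) and between males and females (right) for the 8 members and for 19 extracellular partners, 18 intracellular scaffolds and 6 genes of splicing and shedding. Each point is a gene with its SE, sorted within its list, and red points passed the threshold; these were Mdga2 at 0.41 and Lrrtm1 at -0.20, both between the sexes.

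Whether the diet difference itself depended on sex was tested with an interaction term, which is the FD minus CD difference in males minus that in females. No gene of the 20589 passed the threshold with edgeR or DESeq2 (0%), and 391 (1.9%) had an unadjusted p below 0.05 with edgeR, 0 of the 8 members among them. For Nxph3 the term was -0.13 (SE 0.348, edgeR adjusted p = 1.0), and it turned to 0.43 without FD female 1. The largest term relative to its error among members was that of Nxph1, at -0.23 (SE 0.143, edgeR adjusted p = 1.0). Its mean was 45.3 ± 3.69 CPM in 3 CD males and 42.0 ± 1.21 CPM in 2 FD males, and 40.7 ± 5.8 CPM in 3 CD females and 44.4 ± 2.82 CPM in 3 FD females. Of the partner genes the 3 smallest p belonged to Khdrbs2, a regulator of neurexin splicing, at -0.29 (SE 0.169), to Mdga2 at -0.25 (SE 0.154) and to Cbln4 at -0.38 (SE 0.252), each with an edgeR adjusted p of 1.0. With 2 FD males these terms are imprecise.

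Finally, the genes whose level followed Nxph3 most closely over the 11 mice were sought among the 14437 genes that averaged 1 CPM or more. The 5 with the highest Pearson correlation of log2 CPM were Klhl1 (r = 0.93, Spearman's rho = 0.909), Tox (0.919, 0.818), Slc17a6 (0.918, 0.827), Maco1 (0.909, 0.927) and Chrna4 (0.887, 0.9). Without FD females 2 and 3, the mice farthest from the median of Nxph3, these correlations were 0.784, 0.812, 0.821, 0.922 and 0.802. They are the top of a long list over few mice that share libraries, so they are given as a description. Slc17a6 encodes the vesicular glutamate transporter VGLUT2, which is typical of thalamic and subicular projection neurons, and Chrna4 a subunit of nicotinic acetylcholine receptors.

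Like Nxph3, Slc17a6 was lowest in FD female 3 at 7.91 CPM, against 13.0 to 22.6 CPM in the other FD mice and 16.5 to 23.8 CPM in CD mice. Klhl1 was likewise lowest in that mouse with 1.24 CPM, against 1.45 to 2.33 CPM in the other FD mice. Maco1 hardly varied, from 64.8 to 70.2 CPM over all mice. The other members and Nxph2 had lower correlations with Nxph3, with r of 0.285 for Nrxn2, 0.196 for Nxph1 and 0.0366 for Nlgn2 and negative values for Nrxn3 (-0.257), Nlgn1 (-0.114), Nlgn3 (-0.21) and Nxph2 (-0.211). These lower values depend on FD females 2 and 3: without them r was 0.712 for Nrxn2, 0.553 for Nxph1 and 0.503 for Nlgn2, and Spearman's rho over all 11 mice was 0.609, 0.527 and 0.327. Without the same mice r was -0.495 for Nrxn3, -0.36 for Nlgn1, 0.0249 for Nlgn3 and 0.36 for Nxph2.

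Markers of regions that border the hippocampus were set beside these values. The summed CPM of 10 genes of deep cortex and subiculum was 249 to 291 in CD and 235 to 300 in FD mice. Its highest value, 300.1, was that of FD female 1, and its lowest, 235, that of FD female 3, the mice with the highest and lowest Nxph3. FD male 2, with 12.5 CPM of Nxph3, was next to the highest at 299.7. In that mouse the genes of the list went opposite ways. Fn1 (93.5 CPM), Ccn2 (13.6), Nts (10.6) and Foxp2 (2.4) had their highest values there, and Tle4 (66.2), Tbr1 (38.6) and Rprm (20.1) their lowest. The list did not move together in FD female 3 either. Fn1 (37.0 CPM, against a mean of 58.3), Fezf2 (29.4), Nts (4.06) and Ccn2 (2.36) had their lowest values in FD female 3. Foxp2 (1.99) was above its CD maximum of 1.6 there, and Rprm (27.1) and Rorb (16.7) were above their means of 26.0 and 15.7. All 10 genes were detected in every mouse, from Foxp2 with a mean of 1.55 CPM to Tle4 with 72.8 CPM. The summed CPM of 6 thalamic genes, one of which is Slc17a6, was 60.6 to 71.7 in CD and 63.2 to 77.3 in FD mice. It was also highest in FD female 1, at 77.3, whereas FD female 3 had 63.5. The thalamic genes did not move together: in FD female 3 Slc17a6 was at its lowest, 7.91 CPM, and Prkcd at its highest, 36.6 CPM. Between FD and CD mice, 4 of the 6 had a higher fitted value in FD and 2, Slc17a6 among them, a lower one. These lists were detected in all mice, from Tcf7l2 with a mean of 3.63 CPM to Prkcd with 32.8 CPM for the thalamic one, and their part in the Nxph3 values was not tested. The summed CPM of 9 interneuron genes, from Vip at a mean of 17.1 to Gad1 at 403 CPM, was 988 to 1065 in CD and 996 to 1108 in FD mice.

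**Figure D5:**
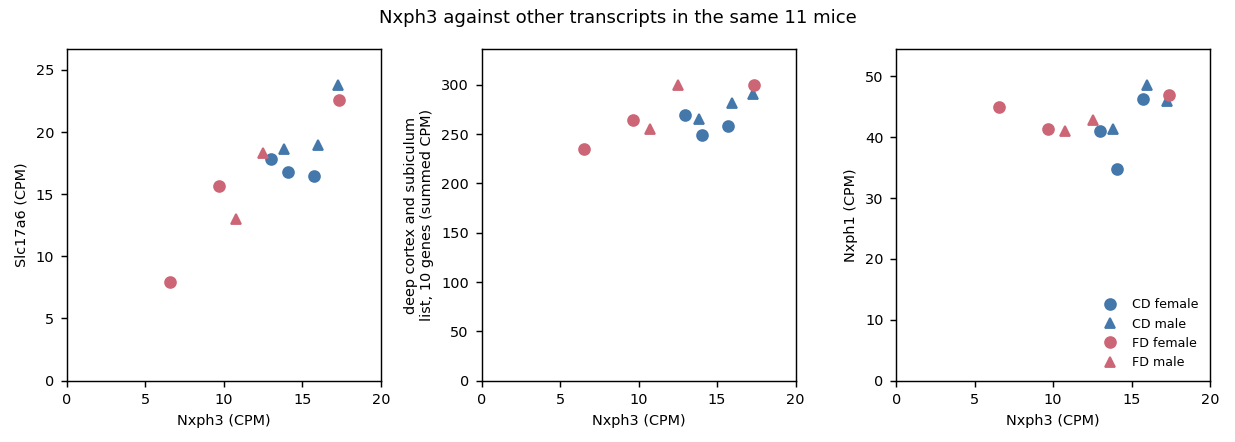
CPM of Nxph3 in the 6 CD and 5 FD mice against CPM of Slc17a6, summed CPM of the 10 deep cortex and subiculum genes, and CPM of Nxph1, with all axes starting at 0. Each point is a mouse; FD female 3, with 6.54 CPM of Nxph3, has the lowest Slc17a6 at 7.91 CPM and the lowest summed value at 235, but an Nxph1 level within the range of the others.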

How the data were processed

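RNA of whole hippocampus from 11 mice was sequenced in 50-base single reads. After trimming, the authors mapped the reads to mm10 (GRCm38 in the submitters' processing notes) by STAR and assigned uniquely aligned reads to genes. The deposited values are these raw counts per gene and mouse. The paper names featureCounts, the summary lines have the form of HTSeq, and annotation release and strandedness are not given in the sources used here. Reads with several alignments (13.7% to 16.0% of the reads listed) are not in the counts, so regions shared between genes are undercounted. The share of reads outside genes is that of the uniquely aligned reads.

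Identifiers were matched to GENCODE M21 (36345 of 38293, 94.9%). Genes reaching 10 counts in total were fitted in R 4.3.3 with edgeR 4.0.16 (TMM, quasi-likelihood test, Benjamini-Hochberg over all genes, the study's threshold of 0.1), by diet alone, by diet and sex, and with their interaction. SE is the log2 difference divided by the square root of F. Log2 CPM used a prior count of 2. DESeq2 1.42.0, other scaling and filters, covariates, a replicate block, single sexes or diets and leaving out each mouse were alternatives. The scripts were tested on simulated counts. Mice of equal sex and number deviated together from their diet means (r = 0.307 to 0.54 in 5 pairs, mean 0.396). The mean was 0.23 in the 10 pairs of equal sex and other number. By this r, 4 of the 5 FD mice were closest to the CD mouse of their own number. Without the sex difference r was below 0 in 3 of the 5 pairs (mean 0.0698) and in 8 of the 10 (mean -0.159). Removing sex means lowers r among mice of equal sex, so these signs do not decide whether the numbers mark pairs. The labels name no litter or batch behind the numbers. Tables and figures used Python 3.11.15, pandas 2.3.3 and matplotlib 3.10.9. Named were the members, Nxph2, partner genes past the threshold or among the 3 smallest p of a comparison, and the 5 genes most like Nxph3. The members and lists were chosen with earlier results of these data known. A further gene of the naming rule is not reported here.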

Additional observations from a re-analysis of the deposited data

Results flagged for a closer look

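In FD mice, Nlgn3 of female 3 stood apart with 62.5 CPM, against 49.7 to 52.8 CPM in the other 4 FD mice, a gap beyond Dixon's critical value of 0.71 for 5 samples. CD females 1 and 3 had levels of Nlgn3 in the same region, 63.6 and 69.1 CPM. A total of 16 groups were examined in this way, and chance marks about 1 in 20.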

How the results depend on the processing

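Depth limits the scarce genes: Nxph4 had 3 to 31 reads per mouse and Nxph2 18 to 109. The FD minus CD difference of each member moved by less than its spread between mice in all 79 alternative fits and in all 88 fits without a mouse, and for Nxph3 it stayed between -0.62 and -0.24. The number of genes called between FD and CD mice, 14, was 8 with edgeR's own expression filter, 1 with at least 10 counts in every mouse, 2 in males, 1 in females, 22 with reads outside genes as covariate and 3 (without FD female 1 or FD female 3) to 12 (without FD male 2) with 1 mouse left out. With the mice of equal sex and number taken as pairs in a replicate block, it was 23, and Nxph3 was at -0.37 (SE 0.12). The block changed no call of a member or partner gene. The causes of these changes were not tested.

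The number called between the sexes, 1257, was 2043 with DESeq2, 2645 without a filter, 37 without diet as covariate, 5 within CD, 5 within FD, 9 with reads outside genes as covariate and 18 (without CD male 1) to 3244 (without CD female 2) with 1 mouse left out. Nrxn2 passed the threshold at -0.20 with DESeq2, -0.21 without a filter and -0.20 with at least 10 counts in every mouse, and was between -0.25 and -0.16 without 1 mouse, passing in 3 of 11 such fits (without CD female 2, CD male 3 or FD female 2). Nlgn3 passed without a filter (adjusted p = 0.0682 with edgeR) and without CD female 2 (0.0634), and Nlgn2 without CD female 2 (0.0653). Differences that did not pass the threshold turned for Nxph1 within FD mice (-0.084) and, with reads outside genes as covariate, for Nxph4 (0.42) and Nxph2 (0.016). Without 1 mouse, Nxph1 was at -0.020 to 0.084, Nxph3 at -0.024 to 0.28 and Nxph2 at -0.35 to 0.031. The difference of Nxph2 between FD and CD turned to 0.051 in females, to 0.0098 with reads outside genes as covariate, and was -0.13 to 0.16 without 1 mouse. Small differences of members between FD and CD also changed sign in males, for Nxph1 (-0.097), Nlgn1 (0.037) and Nlgn3 (0.062), and without single mice, with ranges of -0.041 to 0.050 for Nxph1, -0.034 to 0.020 for Nlgn1 and -0.11 to 0.019 for Nlgn3.

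For the interaction, 10 genes were called without a filter, and 0 to 1 without 1 mouse (1 without CD female 3). Without 1 mouse the terms were -0.42 to 0.43 for Nxph3, -0.016 to 0.058 for Nrxn3 and -0.038 to 0.096 for Nlgn1. With the means of the diet and sex groups removed, 0 of the 5 genes most like Nxph3 stayed among the first 5, but their r was still 0.889 to 0.927, at ranks 8 to 24 of the 14437 genes.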
